A study of Mus musculus with 6 samples.

Results

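Replication and mitosis genes were followed as a group of 33 genes that mark dividing cells, matched by gene symbol on mouse expression arrays. Of these, 32 were measured among 18193 genes, 13 assigned to S phase and 19 to mitosis. Ccnb1, the remaining mitotic member, matched no probe set annotated with that symbol alone and was not analysed here. A probe set is a group of short probes for a transcript, and where a gene had several, the brightest over the 6 arrays was taken. The label fits what the symbols name, since all are standard genes of DNA replication or cell division, and the classes were set by textbook role and not by any measured value.

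The arrays came from CD4+CD25- T cells of C57BL/6 lymph nodes, kept with anti-CD3 and anti-CD28 antibodies, 200 U/ml IL-2 and 5 ng/ml TGF-β1 for 2 days to steer them towards a regulatory T cell fate. On day 1 they were transduced with a retrovirus carrying either bHLH-ER (control, 3 samples) or E47-ER (E47, 3 samples), where E47 is a basic helix-loop-helix transcription factor and ER marks a fusion that tamoxifen activates. Transduced CD4+Thy1.1+ cells of either group then received 6 hours of 1 µM tamoxifen with IL-2 and both antibodies before RNA was taken. In experiments 1 to 3, each with a sample per construct, a sample pooled 3, 3 and 4 mice aged 7, 8 and 9 weeks, so age, pool and experiment cannot be told apart. The labels do not describe the bHLH-ER construct further. No sample lacked tamoxifen, and E47 came from a virus in cells that had already been stimulated, so the comparison is of the constructs in dividing cultures and not of E47 at its native level.

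Cells copy their DNA in S phase and separate the copies in mitosis, and each step has its own genes. Before S phase, Cdc6 and Cdt1 load the MCM helicase on origins, and cyclin E with its kinase starts replication. Cyclin B with Cdk1 then starts mitosis, in which Aurora and Polo kinases, the spindle checkpoint and spindle motors part the chromosomes. Transcription of the first set is known to depend on E2F factors and that of the second on NF-Y at CCAAT boxes and on MuvB complexes at the cell cycle genes homology region (CHR). Activated T cells divide fast, and E proteins such as E47 are known to restrain growth in several lymphoid settings.

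Letters of these kinds differed in share between the promoters of the classes, which are given for 4 genes, the 2 members of each class with the lowest p in the comparison below that the sequence table held. RefSeq promoters (GRCm38.p6, 250 bases before to 50 bases after the start) were matched by symbol for 27 of the 32 measured members. Capitals mark matches, on either strand, to the E-box letters CAGCTG, or the E-box letters CAGGTG (E47 is known to bind E-boxes), to the CCAAT box, to the CHR letters TTTGAA, or to the E2F letters, which were TTTCGCGC or TTTGGCGC or TTTCCCGC or TTTGCCGC. Each runs 5′ to 3′ on the strand of its gene, Mcm3 at chr1:20820263-20820562 (minus strand), Tyms at chr5:30073576-30073875 (minus), Kif11 at chr19:37376132-37376431 (plus) and Nusap1 at chr2:119618048-119618347 (plus).
Mcm3: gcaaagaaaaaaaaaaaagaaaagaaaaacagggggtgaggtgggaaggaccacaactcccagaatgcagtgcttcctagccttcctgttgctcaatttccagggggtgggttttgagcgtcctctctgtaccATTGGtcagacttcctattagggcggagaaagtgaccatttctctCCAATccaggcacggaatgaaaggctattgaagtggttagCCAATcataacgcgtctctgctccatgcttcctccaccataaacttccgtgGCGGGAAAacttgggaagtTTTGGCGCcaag
Tyms: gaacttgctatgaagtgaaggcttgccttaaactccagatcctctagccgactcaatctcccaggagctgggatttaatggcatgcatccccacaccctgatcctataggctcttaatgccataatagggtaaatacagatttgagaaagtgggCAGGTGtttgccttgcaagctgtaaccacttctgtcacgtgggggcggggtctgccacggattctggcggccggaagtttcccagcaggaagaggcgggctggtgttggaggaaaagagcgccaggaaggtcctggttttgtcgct
Kif11: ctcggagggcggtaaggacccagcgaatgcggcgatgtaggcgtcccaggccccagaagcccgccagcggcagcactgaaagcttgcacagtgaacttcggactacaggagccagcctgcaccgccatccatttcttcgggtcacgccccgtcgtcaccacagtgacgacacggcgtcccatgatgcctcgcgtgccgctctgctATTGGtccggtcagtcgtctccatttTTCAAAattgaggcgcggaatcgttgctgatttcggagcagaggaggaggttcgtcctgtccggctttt
Nusap1: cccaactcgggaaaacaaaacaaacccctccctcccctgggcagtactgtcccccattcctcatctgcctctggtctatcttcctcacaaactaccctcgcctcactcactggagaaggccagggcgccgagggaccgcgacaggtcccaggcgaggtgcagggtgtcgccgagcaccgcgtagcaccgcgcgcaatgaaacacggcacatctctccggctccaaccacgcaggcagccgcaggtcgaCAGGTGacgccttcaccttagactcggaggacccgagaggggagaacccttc

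Mcm3, an S phase gene, held CCAAT letters at positions -117, -72 and -32 and E2F letters at 20 and 39, counted from the first base of the gene. Kif11, a mitotic gene, held CCAAT letters at -45 and CHR letters at -19, both on the opposite strand. E-box letters CAGGTG stood at -96 in Tyms and at -2 in Nusap1. Over the class, CHR letters were found in 12 of 16 mitotic promoters (75%), in 1 of 11 S phase promoters (9.09%) and in 13.4% of 14453 promoters of genes on the array. E2F letters were found in 6 of 11 S phase promoters (54.5%), in 1 of 16 mitotic promoters (6.25%, Cdk1) and in 3.38% of all. CCAAT letters were found in 7 of 11 S phase promoters and 14 of 16 mitotic promoters (63.6% and 87.5%), against 38.2% of all. Either E-box was found in 3 of 11 S phase promoters (27.3%), in 4 of 16 mitotic promoters (25%) and in 32.3% of all. These are matches of letters within 300 bases, not measured binding. The entries Ccna2, Ccne2, Mcm4, Aurkb and Kif20a were missing from the sequence table.

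The arrays were alike in scale, with median intensities between 34.3 and 35.4 and correlations between control and E47 arrays of 0.987 to 0.997 over genes. The log2 ratio of 3′ to 5′ control probe sets, a sign of RNA quality, lay between 0.21 and 0.29 for actin and between -0.15 and -0.07 for Gapdh. Log2 levels of the helper T cell genes Cd4, Cd3e, Cd3g, Cd5 and Cd28, which define the labelled cell type together with Lck (not analysed here), were 7.90 or higher on every array. Myeloid, dendritic and erythroid markers lay at or below 6.75 on each array, and B cell markers at or below 5.65. Markers of CD8 T cells and the NK marker Klrd1 were higher in experiment 2, while the NK marker Ncr1 stayed low on all arrays. Those of CD8 T cells were also higher with E47. Myeloid markers were lower with E47, at medians of -0.14, -0.15 and -0.17 in pairs 1 to 3 (1 of 5 above 0). B cell markers were lower too, at -0.14, -0.20 and -0.29 (0 of 5 above 0). The lowest adjusted p was 0.344 among myeloid and 0.535 among B cell markers (limma). The CD8 and NK markers are given beside the results by experiment. The probe sets of 31 of the 32 members lay above the 75th percentile of gene means, a log2 level of 8.74, with intensities between 395 and 13452. Tyms, which makes thymidylate for DNA synthesis, was read from a dim probe set whose mean log2 level was 6.45.

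E47 and control samples were compared to ask whether the construct changed the expression of replication and mitosis genes in these Treg-like cells. No member passed the test. Differences were small in either class, from -0.03 to 0.31 on the log2 scale over all 32 (0.977-fold to 1.24-fold), with a median of 0.07 among S phase members and 0.07 among mitotic members, against -0.03 over all genes. In limma with the experiment as a block, the p adjusted over all 18193 genes (Benjamini-Hochberg, threshold 0.05) lay between 0.333 and 0.980. Over all genes 142 rose and 66 fell (0.781% and 0.363%). Without the block 0 of 32 passed as well, where 45 genes passed (0.247%). At an unadjusted p under 0.05 there were 5 members, all higher in E47, where 5.1% of all genes were higher and 6.9% lower at that limit. These were Nusap1, Kif11, Bub1 and Ccnb2 among mitotic genes and Ccne2 among S phase genes. Without the block 0 of 32 members met an unadjusted p under 0.05, against 6.65% of all genes. In bulk RNA a change in the share of dividing cells and a change in RNA per cell cannot be told apart.

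The intervals bound how large a difference could have been missed in the fit with the experiment as a block. Without the block the SE was 0.24 for Ccnb2 (0.10 with it), 0.21 for Nusap1 (0.11) and 0.17 for Mcm7 (0.08). That of Cdc6 was 0.09 in both fits. Intervals without the block were not worked out. The 95% interval of the E47 minus control difference lay inside ±1 on the log2 scale, a 2-fold change, for all 32 members, and inside ±0.5 for 29 of them, 12 in S phase and 17 in mitosis. Over all genes 98.8% and 87.2% had intervals that narrow. The 3 members with a bound beyond 0.5 were Tyms (-0.07 to 0.69), Nusap1 (0.06 to 0.57) and Ccnb2 (0.01 to 0.51). The interval lay inside ±0.25, a 1.19-fold change, for 8 members and 22.5% of all genes.

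**Figure D1:**
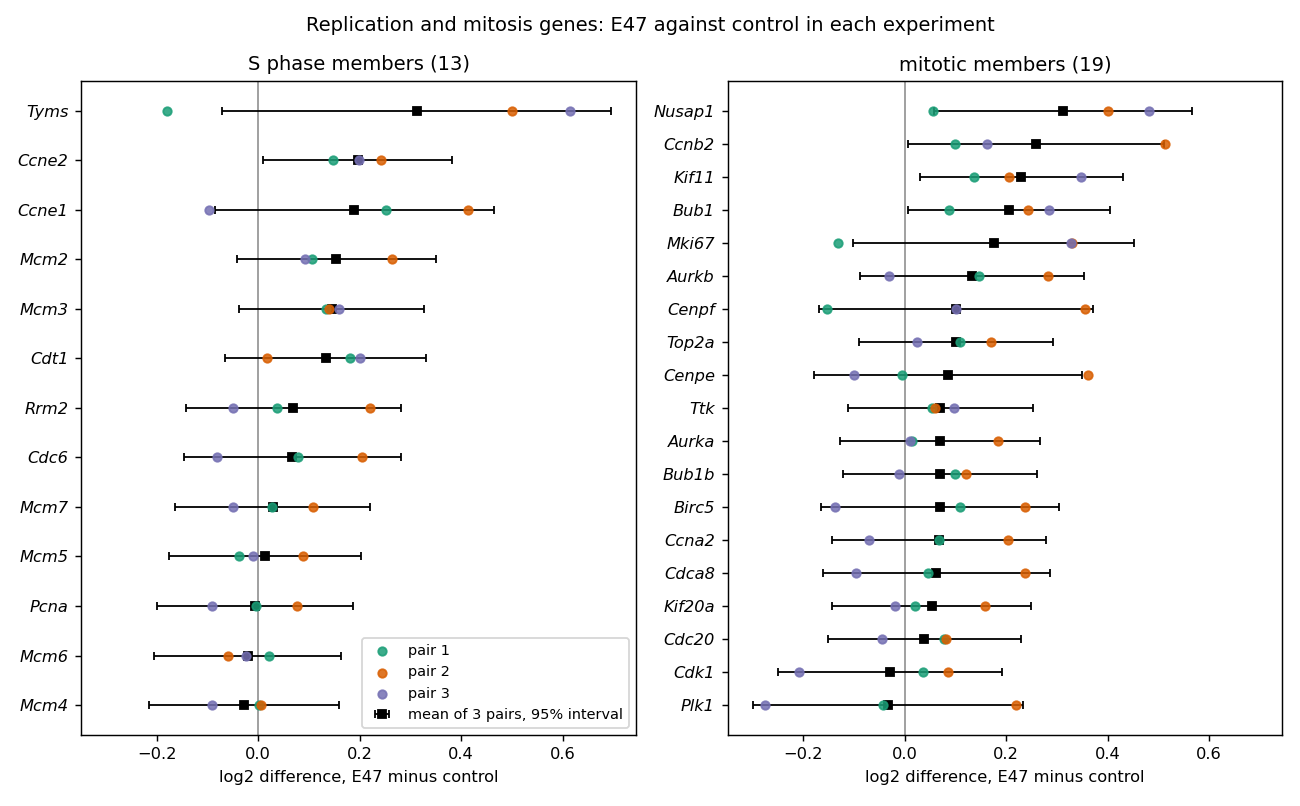
The x axis gives the log2 difference, E47 minus control, for each of 32 genes, with S phase members on the left and mitotic members on the right; coloured points are the 3 pairs, squares the mean and bars its 95% interval. The means run from -0.03 to 0.31 and the points of pair 2 lie above 0 for 31 of 32 genes.

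Licensing came first among the S phase members. Mcm3, a subunit of the helicase that unwinds DNA, stood at a log2 level of 11.13, 11.24 and 11.20 with the control construct and 11.26, 11.38 and 11.36 with E47 (experiments 1 to 3). Each E47 array was above every control array, by a mean of 0.14 (SE 0.08, adjusted p = 0.511, limma). Over its 5 probe sets the difference ran from 0.03 to 0.17, and some of the others had pairs of either sign. Mcm2, another subunit, read 10.75, 10.89 and 10.58 with the control construct and 10.86, 11.15 and 10.67 with E47, so the groups overlapped although each pair was higher (0.15, SE 0.08, adjusted p = 0.516). The other Mcm2 probe set was at 0.05, with pair 3 at -0.06. The remaining subunits lay closer to 0, with Mcm4 at -0.03, Mcm5 at 0.01, Mcm6 at -0.02 and Mcm7 at 0.03. Subunits of the same helicase differed from each other by less than the width of a single 95% interval, which for Mcm7 ran from -0.16 to 0.22. Cdt1, which loads the helicase, was at 0.13 and Cdc6, its partner in loading, at 0.07. The 3 Cdt1 probe sets ran from -0.03 to 0.13. None of the 8 licensing members passed, and their median was 0.05.

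Cyclin E, which drives entry into S phase, is encoded by Ccne1 and Ccne2. Ccne2 stood at a log2 level of 10.10, 10.21 and 10.15 with the control construct and 10.25, 10.46 and 10.35 with E47 (experiments 1 to 3). As with Mcm3 the groups did not overlap, and the difference was 0.20 (SE 0.08, adjusted p = 0.392, limma). Ccne1 read 10.01, 9.87 and 9.97 with the control construct and 10.27, 10.28 and 9.87 with E47, higher in pairs 1 and 2 and lower in pair 3 (0.19, SE 0.11, adjusted p = 0.559). Its other probe set was at 0.27 and higher in all 3 pairs (adjusted p = 0.431 over all probe sets).

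Among fork and nucleotide genes, Pcna, the sliding clamp of DNA polymerase, was the member with the smallest difference. It stood at a log2 level of 13.59, 13.64 and 13.48 with the control construct and 13.58, 13.72 and 13.39 with E47 (experiments 1 to 3; -0.01, SE 0.08, adjusted p = 0.980, limma), a sign that turned to 0.0084 with arrays centred and 0.013 with cyclic loess. Rrm2, the small subunit of ribonucleotide reductase, was at 0.07. Tyms had the largest difference of the S phase class, 0.31 (SE 0.16, adjusted p = 0.499), from 6.84, 6.14 and 5.90 with the control construct and 6.66, 6.64 and 6.52 with E47. The difference was 0.56 without experiment 1, 0.16 without experiment 3 and 0.069 with its probe sets averaged. In level the 3 E47 arrays lay together and the control arrays were spread, with control replicate 1 the highest of the 6. Its 4 probe sets disagreed, at 0.31, 0.08, 0.10 and -0.21, and the last of these had an unadjusted p of 0.044 (adjusted p = 0.459 over all probe sets).

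**Figure D2:**
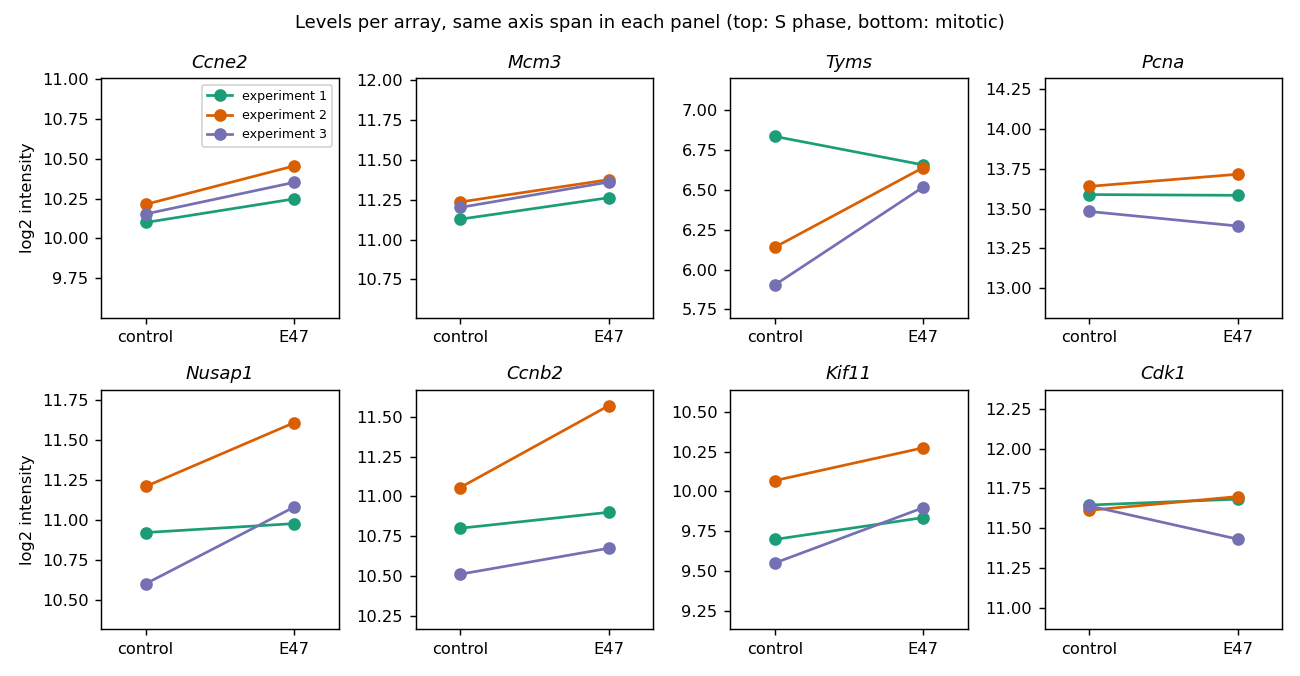
Each panel shows the log2 intensity of a gene on the y axis, with the control and E47 array of each experiment joined by a line; the panels share an axis span of 1.5 and show S phase genes above and mitotic genes below. Ccne2 and Mcm3 are higher in E47 in all 3 experiments, Pcna and Cdk1 in some only, and experiment 2 lies highest for Nusap1, Ccnb2 and Kif11.

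Mitosis starts with cyclin B and Cdk1. Ccnb2, a B-type cyclin, stood at a log2 level of 10.80, 11.06 and 10.51 with the control construct and 10.90, 11.57 and 10.68 with E47 (experiments 1 to 3). Its differences were 0.10, 0.51 and 0.16 in pairs 1 to 3, a mean of 0.26 (SE 0.10, adjusted p = 0.406, limma), and the groups overlapped, with both arrays of experiment 2 above the rest. Without experiment 2 the difference was 0.13. Cdk1, the kinase that cyclin B activates, read 11.65, 11.61 and 11.64 with the control construct and 11.68, 11.70 and 11.43 with E47, the smallest difference of the mitotic class (-0.03, SE 0.09, adjusted p = 0.924). Plk1, the Polo kinase of mitotic entry, was also at -0.03, with pairs at -0.04, 0.22 and -0.28. Aurka, the Aurora kinase of the spindle poles, was at 0.07, and Aurkb with its partners Birc5 (survivin) and Cdca8 (borealin), which act at the centromere, at 0.13, 0.07 and 0.06. None of these 7 genes passed, and their median difference was 0.05, 0.24 and -0.10 in pairs 1 to 3.

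Among spindle genes, Nusap1, which bundles spindle microtubules, stood at a log2 level of 10.92, 11.21 and 10.60 with the control construct and 10.98, 11.61 and 11.08 with E47 (experiments 1 to 3). The mean difference, the largest of the mitotic class, was 0.31 (SE 0.11, adjusted p = 0.333, limma), and its second probe set gave 0.34. Kif11, the motor that pushes spindle poles apart, read 9.70, 10.07 and 9.55 with the control construct and 9.84, 10.27 and 9.90 with E47, higher in every pair (0.23, SE 0.08, adjusted p = 0.357), and its other probe sets were at 0.28 and 0.27. Either gene overlapped between groups, since control replicate 2 lay above E47 replicate 1. Cenpe and Cenpf, kinetochore proteins, were at 0.09 and 0.10, and Kif20a, a motor of cytokinesis, at 0.05.

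Among checkpoint genes, Bub1, a kinase of the spindle checkpoint, stood at a log2 level of 10.64, 10.81 and 10.59 with the control construct and 10.73, 11.05 and 10.88 with E47 (experiments 1 to 3; 0.21, SE 0.08, adjusted p = 0.404, limma), higher in each pair with overlapping groups. Bub1b was at 0.07, the checkpoint kinase Ttk at 0.07 and Cdc20, which activates the anaphase-promoting complex, at 0.04. The general proliferation markers Mki67, Top2a and Ccna2, which are high from S phase to mitosis, were at 0.18, 0.10 and 0.07. For Mki67 the pairs were -0.13, 0.33 and 0.33, so its sign differed between experiments.

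More members lay above 0 than below, with none past the test. The mean difference was above 0 for 27 of 32 members, 10 of 13 in S phase and 17 of 19 in mitosis, against 42.3% of all genes and 49.6% of the 4548 genes above the 75th percentile of level. Without experiment 2 that count was 18 of 32, without experiment 1 27 and without experiment 3 31. The share of all genes above 0 was not counted in those fits. Higher in all 3 pairs were 11 members (14.4% of all genes), and lower in all 3 pairs were 0 (19.9% of all genes). The 11 were Ccne2, Mcm2, Mcm3 and Cdt1 of the S phase class and Top2a, Ccnb2, Bub1, Aurka, Kif11, Ttk and Nusap1 of the mitotic class. These counts rest on the brightest probe set. Other probe sets of Mcm2, Mcm3, Cdt1, Top2a, Bub1, Aurka and Ttk were lower in some pair. All 3 E47 arrays lay above all 3 control arrays for 2 members, Ccne2 and Mcm3, or 6.25%, near the 4.65% of all genes. All 3 lay below for 0 members and 7.13% of genes. Among 72 probe sets of the members, 62 were higher in E47, where 45.2% of all 34945 probe sets were. At an unadjusted p under 0.05 there were 9 higher and 1 lower, against 5.16% and 5.4% of all probe sets. The lower one was a Tyms probe set other than the one used, with a mean log2 level of 2.99. With adjustment over all probe sets 0 of 72 passed (0.564% of all). Of 23 members with more than 1 probe set, 17 had all of them higher and 6 had mixed signs.

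S phase and mitotic members were compared within each pair, as the grouping of the genes asks. The median difference of the S phase class was 0.04, 0.14 and -0.02 in pairs 1 to 3, and that of the mitotic class 0.06, 0.22 and -0.01. S phase minus mitotic was therefore -0.02, -0.08 and -0.01, a mean of -0.04 ± 0.04 (SD, n = 3 pairs). In both classes pair 2 was the highest and pair 3 the lowest. The sign of the gap between their overall medians, -0.0013, turned to 0.0099 with quantile normalization and 0.0060 with cyclic loess. This gap was -0.028 with probe sets averaged and -0.025 without shared probe sets. Taken within pairs, the gap was below 0 in all 3, and its mean was about as large as its SD of 0.04. The pair medians themselves varied more, by 0.08 in the S phase class and 0.12 in the mitotic class (SD, n = 3). Leaving Ccna2, Mki67 and Top2a out of the mitotic class gave -0.04 ± 0.04. No test was made of these medians, since genes are not replicates.

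**Figure D3:**
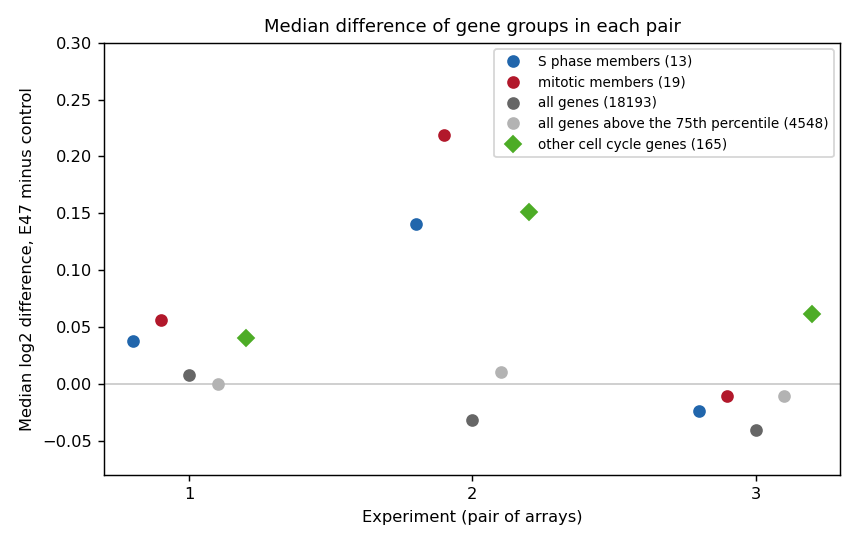
Points show the median log2 difference, E47 minus control, on the y axis for each experiment on the x axis, in S phase members, mitotic members, 165 other cell cycle genes, all genes and the genes above the 75th percentile of level. S phase and mitotic members reach 0.14 and 0.22 in experiment 2 and lie at -0.02 and -0.01 in experiment 3, while all genes stay between -0.04 and 0.01.

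Array E47 replicate 2 was high across the members. It was the highest of the 6 arrays for 27 of 32 members, 11 of 13 in S phase and 16 of 19 in mitosis, against 16.5% of all genes and 21.2% of genes above the 75th percentile of level. E47 replicate 1 was highest for 3 members, Bub1b, Aurka and Cdc20. Control replicate 1 was highest for Tyms and control replicate 2 for Mcm6. The lowest array was E47 replicate 3 for 14 members and control replicate 3 for 10, against 21% and 13.9% of all genes. E47 replicate 2 was the highest for between 24 and 28 members when arrays were centred on their medians, quantile normalized or smoothed with cyclic loess, settings of this count chosen after seeing the data.

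**Figure D4:**
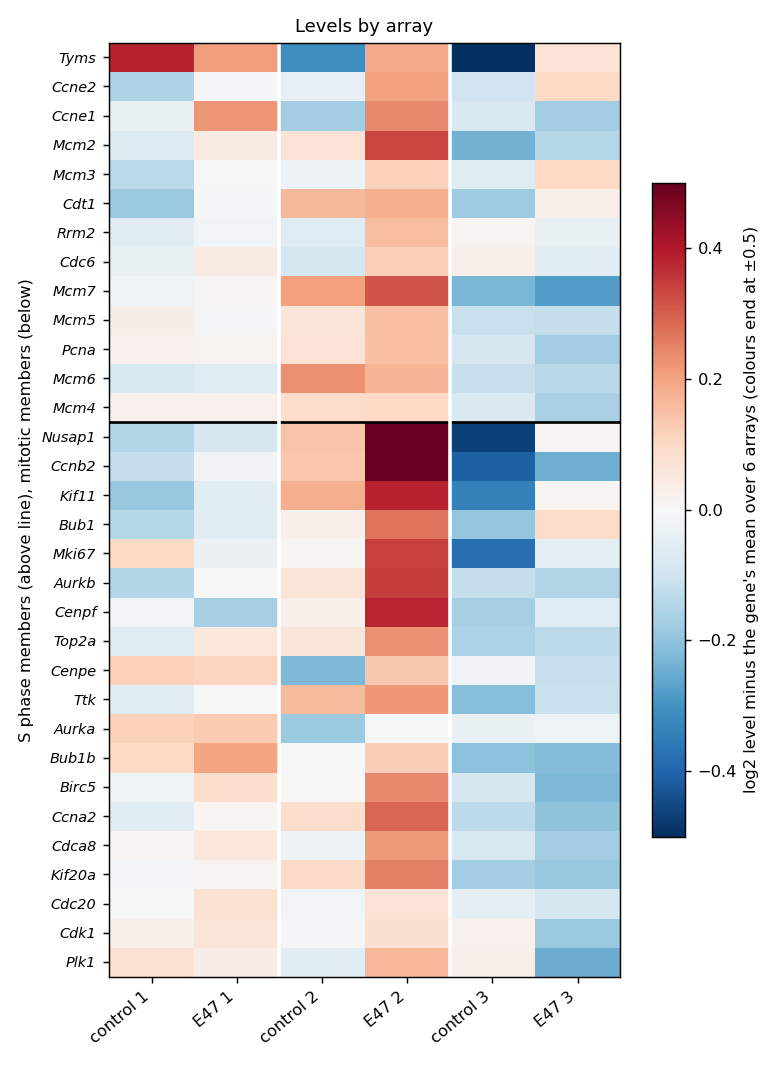
Rows are the 32 genes, S phase members above the line and mitotic members below, and columns the 6 arrays ordered by experiment; colour gives the log2 level minus the mean of the gene over the 6 arrays. E47 replicate 2 is the reddest column, being highest for 27 of 32 genes, and both arrays of experiment 3 are mostly blue.

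The F test of differences between the 3 experiments called 0 of 32 members in limma (adjusted p from 0.0730, where 3.2% of all genes were called). At an unadjusted p under 0.05 it met 11 members, against 17.9% of all genes, and Ccnb2, Mcm7, Kif11 and Nusap1 had the lowest values (adjusted p = 0.0730, 0.0898, 0.112 and 0.123). The count of calls changed with the setting. With a variance trend and robust estimation in limma the F test called 12 of 32 (lowest adjusted p = 0.00078). With only genes above the median level it called 4, and with 16 added before taking log2 it called 3. Ccnb2, Mcm7 and Kif11 were called each time. Without experiment 2 the F test called 0 (lowest adjusted p = 0.673), without experiment 3 also 0 (lowest 0.137) and without experiment 1 3, Ccnb2, Mcm7 and Nusap1. The share of all genes called was not counted in these settings, so these member counts have no background beside them.

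Experiment 2 stood above experiment 3 for 31 of 32 members, with a median log2 difference of 0.24 (-0.02 over all genes), 0.21 in S phase and 0.29 in mitosis. Aurka was the exception, at -0.07. In limma 2 members passed this contrast, where 4.29% of all genes did. They were Ccnb2 (0.72, adjusted p = 0.0342) and Mcm7 (0.52, adjusted p = 0.0422). Experiment 2 stood above experiment 1 for 24 of 32 members with a median of 0.13 and 0 called (2.73% of all genes), and experiment 3 above experiment 1 for 5 with a median of -0.14 and 0 called (0.0055% of all genes). Both groups took part: experiment 2 exceeded experiment 3 in 25 of 32 members on control arrays (median 0.19) and in 32 of 32 on E47 arrays (median 0.33). Each of these is a comparison of single arrays, with no replicate check.

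Other markers moved with experiment 2 too. Klrd1, a receptor of NK and CD8 T cells, had log2 levels of 8.79 and 8.35 in the control and E47 arrays of experiment 2 and between 6.68 and 7.21 on the other 4 arrays (F test adjusted p = 0.0108, limma). Ncr1, a defining marker of NK cells, lay between 3.70 and 3.89 on all arrays. Cd8a, a chain of the CD8 coreceptor, was at 6.68 and 7.17 in experiment 2 and between 5.79 and 6.21 elsewhere (F test adjusted p = 0.0289), and Cd8b1 reached 7.51 in E47 replicate 2 against 6.40 to 6.95 on the other arrays. The CD8 markers, 2 of 2 measured, were also higher with E47 in each pair, though neither passed (Cd8a at 0.24, adjusted p = 0.462, and Cd8b1 at 0.51, adjusted p = 0.185). The log2 of their summed level was 7.47, 7.71 and 7.13 on control arrays and 7.58, 8.35 and 7.56 on E47 arrays of experiments 1 to 3. With 2 of 3 NK markers measured, their sum was 6.87 to 8.83 on control and 7.07 to 8.40 on E47 arrays. Klrd1 made up most of that sum. The B cell marker Ms4a1 was also called by the F test of experiments. The part of any marker set in the level of the replication and mitosis genes was not tested.

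The rest of the cell cycle machinery was read from 8 lists with 171 symbols, of which 165 were measured. In the paired fit 1 rose and 0 fell, and 139 had a difference above 0, a share of 84.2% (42.3% of all genes), with a median of 0.09. The gene that rose was E2f2, a transcription factor of S phase genes, at 8.38, 8.84 and 7.91 with the control construct and 9.29, 10.21 and 8.96 with E47 (log2 difference 1.11, SE 0.11, adjusted p = 0.00928, limma; 0.609 without the block). Each pair was higher by 0.91 or more. E2f2 also differed between experiments by the F test, and was highest in experiment 2 in both groups. That test called 4 genes of the G1 control list (E2f2, Rbl1, Cdkn1a and Cdkn2c) and 2 of the replication fork list (Rfc3 and Chaf1b). Of all genes it called 3.2%. No S phase member passed, whether or not E2F letters were found in its promoter. Those with the letters were Mcm3 at 0.14, Mcm5 0.01, Mcm6 -0.02, Mcm7 0.03, Cdc6 0.07 and Cdt1 0.13. Whether E2f2 acted on any of these genes was not tested. The group that loads and runs replication forks had a median of 0.05 over 44 genes with 0 called, and its lowest p was that of Rfc3, a subunit of the clamp loader (0.34, adjusted p = 0.149). Nucleotide supply genes had a median of 0.00 over 10 genes, with Dck, a kinase that salvages deoxycytidine, at 0.38 (adjusted p = 0.199). Repair and checkpoint genes of S phase were at a median of 0.11 over 11, all above 0, with Bard1, the partner of Brca1, at 0.46 (adjusted p = 0.243).

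The mitotic lists also held no gene that passed. Kinetochore genes had a median of 0.10 over 22, with Ska1, which couples kinetochores to microtubules, at 0.32 (adjusted p = 0.285, limma). Spindle and cytokinesis genes had 0.09 over 22, with the motor Kif18a at 0.29 (adjusted p = 0.243). Condensin, cohesin and anaphase-promoting complex genes had 0.09 over 19, with the condensin subunit Ncapd3 at 0.22 (adjusted p = 0.357), and mitotic entry genes 0.10 over 12, with Mastl, a kinase of mitotic entry, at 0.18 (adjusted p = 0.450). None of the genes of these lists passed in either direction. Their medians lay between -0.01 and 0.05 in pair 1, between 0.16 and 0.22 in pair 2 and between 0.05 and 0.17 in pair 3. The G1 control list, which holds E2f2, had a median of 0.10 over 25.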

How the data were processed

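RNA of 6 samples, 3 per group, was measured on Affymetrix arrays of 45101 probe sets. The deposited values are linear intensities, and the submitters' processing notes name RMA without a version. That method corrects background and equalises array distributions, which can hide a shift common to most genes. Log2 was taken here. Probe sets with several symbols (932) or none in the annotation (9211) and 64 control probe sets were left out, and the probe set with the highest mean log2 stood for each of 18193 genes. Dim genes were kept.

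Sample titles gave group and replicate. The main test was limma 3.58.1 in R 4.3.3 (lmFit, eBayes, two-sided) with group and experiment as terms, Benjamini-Hochberg adjustment over all genes and a threshold of 0.05. An F test of the experiment terms and the 3 contrasts between experiments used the same fit. The pairing comes from the design text, and deviations of same-numbered arrays from their group means correlated at 0.28, 0.67 and 0.43. Arrays of unlike number correlated at -0.52 to 0.25, so pair 1 was hardly set apart by this measure. The fit was tested on simulated data with planted differences larger than any seen in the members, so that test does not cover differences of their size. The members and lists were chosen with earlier results of these data known. Values of every sample are given for the 4 members of each class with the lowest p, those with the largest and smallest difference, Ccne1 as the other cyclin E gene (added after its values were seen), and members whose probe sets disagreed with an unadjusted p under 0.05. Other lists give genes that passed, or the gene with the lowest p. Precision is limited by the number of arrays. The alternatives were the block (none, random), left-out pairs and arrays, normalization, probe set choice, a level filter and an added 16. Others were a variance trend used together with robust estimation in eBayes, and 3 genes left out of the mitotic class. Promoter letters came from RefSeq GRCm38.p6.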

Additional observations from a re-analysis of the deposited data

How the results depend on the processing

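No member was called in the E47 comparison under any alternative listed, the lowest adjusted p being 0.0561 (Tyms without experiment 1, limma). With a pair left out the median ran from -0.0011 to 0.13 in S phase members, from 0.017 to 0.14 in mitotic members and from -0.018 to -0.0074 for S phase minus mitotic. Of 416 member values, 398 kept their sign and 18, in 14 members, did not. Many of these signs could not turn. Fits with no block, a random block, the level filter or a variance trend with robust estimation leave each difference unchanged. Members with 1 probe set are also unchanged by the choice of probe set. Over the fits that leave out a pair, the log2 difference ran for Ccna2 from -0.00071 to 0.14, for Mcm5 from -0.024 to 0.039, for Mcm7 from -0.011 to 0.068, for Birc5 from -0.014 to 0.17, for Cdc6 from -0.0015 to 0.14, for Rrm2 from -0.0064 to 0.13. It ran for Cenpe from -0.053 to 0.18, for Cenpf from -0.025 to 0.23, for Cdca8 from -0.025 to 0.14, for Cdk1 from -0.086 to 0.062, for Mcm4 from -0.044 to 0.0041, for Pcna from -0.048 to 0.036, for Plk1 from -0.16 to 0.088. Pcna was at 0.0084 with arrays centred and 0.013 with cyclic loess. With probe sets averaged Mcm4 was at 0.016 and Mcm6 at 0.0075, and Mcm5 was at -0.078 without shared probe sets. The cause of these turns was not tested.

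Genes higher and lower numbered 44 and 1 with no replicate block and 79 and 13 with a random replicate block. They numbered 215 and 147 among genes above the median level and 327 and 211 with a variance trend and robust estimation, and 106 were lower with 16 added. Without a pair the counts ran from 41 to 208 and from 0 to 80. Without the block and without control replicate 1, 2 or 3 there were 15, 32 and 23 higher, and without E47 replicate 1, 2 or 3 there were 32, 41 and 17, with 0 to 1 lower. Members higher in every pair kept numbered 11 to 24, the most without experiment 3. Members differing between experiments numbered 12, 4 and 3 with the trend and robust estimation, the level filter and 16 added, and 0 to 3 without a pair. The share of all genes was not counted beside them. The F test has no value in fits without a fixed block. The count of differences above 0, whose alternatives were chosen after seeing the data, ran from 18 (without experiment 2) to 31 (without experiment 3)..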
